A study of Mus musculus with 18 samples.

Results

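The genes described here encode the nuclear subunits of the 5 complexes of oxidative phosphorylation, and their mRNA was measured by RNA-seq in mouse liver after ischemia and reperfusion. Members were taken by gene symbol from the deposited table, which lists 56691 genes: symbols that begin with Ndufa, Ndufb, Ndufc, Ndufs, Ndufv, Sdha to Sdhd, Uqcr, Cyc1, Cox4 to Cox8 or Atp5, without assembly factors. Of 104 rows that matched, 12 annotated as pseudogenes by their symbol were left out, which leaves 92 members, 40 in complex I, 4 in complex II, 9 in complex III, 21 in complex IV and 18 in complex V. Ndufa4 and its paralog Ndufa4l2 are counted with complex IV.

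All 18 libraries came from livers of wild-type C57BL/6 mice, 6 in each of 3 groups. IR-Ori mice had clips on the portal triad for 1 h, so that some 70% of the liver lost its blood supply, then 6 h of reperfusion, and were given oridonin, a plant diterpenoid. The IR group had the same clipping and reperfusion without oridonin. Sham mice had anesthesia and an opened abdomen only. How much oridonin was given, when and by which route is not given in the sources used here, nor which lobe was sampled. The labels do not say that each library is a different animal, so names such as IR liver 1 stand for libraries, and p-values measure only the spread between these libraries, which may be technical.

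Complex I oxidizes NADH and passes the electrons to ubiquinone, complex II does the same for succinate as part of the tricarboxylic acid cycle, complex III hands them to cytochrome c, complex IV reduces oxygen, and complex V (ATP synthase) uses the proton gradient to make ATP. Complexes I, III, IV and V mix subunits from both genomes, whereas complex II is wholly nuclear. Hepatocytes are rich in mitochondria, and succinate that builds up in ischemic tissue is known to be oxidized by complex II on reperfusion, with reactive oxygen made at complex I.

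A few promoters are shown here because the results turn on these genes and because nuclear respiratory genes are known for binding sites of NRF1, GABP (an ETS factor), YY1 and the estrogen-related receptors (ERR). Each runs from 250 bases before to 50 after the transcription start, read 5′ to 3′ on the gene's strand from RefSeq on GRCm38.p6, a build other than the one used for the counts. Capitals mark the motif found. Uqcrc1 (chr9:108936398-108936697, plus strand) holds the NRF1 core GCATGCGC on both strands in overlap, Uqcrh (chr4:116075021-116075320, minus strand) the ETS core CCGGAAG, Atp5pb (chr3:105959214-105959513, minus strand) and Ndufs7 (chr10:80249199-80249498, plus strand) the YY1 core AAGATGG, and Atp5g3 (chr2:73911277-73911576, minus strand) and Ndufb4 (chr16:37654319-37654618, minus strand) the ERR core AAGGTCA. Uqcrc1, Uqcrh, Atp5pb and Atp5g3 are, for each motif, the member holding it whose level fell most steeply with the mitochondrial share of a library. Ndufs7 had the smallest p of members in IR against sham, and Ndufb4 in IR-Ori against IR.
Uqcrc1: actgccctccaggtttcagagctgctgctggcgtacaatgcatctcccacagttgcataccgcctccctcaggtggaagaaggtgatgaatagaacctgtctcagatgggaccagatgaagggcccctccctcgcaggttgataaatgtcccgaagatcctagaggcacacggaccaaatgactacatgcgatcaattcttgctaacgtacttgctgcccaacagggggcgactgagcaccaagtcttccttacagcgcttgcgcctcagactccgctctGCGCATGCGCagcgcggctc
Uqcrh: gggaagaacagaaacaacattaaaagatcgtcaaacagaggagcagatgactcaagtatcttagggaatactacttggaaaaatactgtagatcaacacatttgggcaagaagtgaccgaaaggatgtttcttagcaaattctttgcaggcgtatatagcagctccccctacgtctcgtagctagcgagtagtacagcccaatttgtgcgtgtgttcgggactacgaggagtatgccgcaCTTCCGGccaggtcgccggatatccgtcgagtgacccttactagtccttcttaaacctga
Atp5pb: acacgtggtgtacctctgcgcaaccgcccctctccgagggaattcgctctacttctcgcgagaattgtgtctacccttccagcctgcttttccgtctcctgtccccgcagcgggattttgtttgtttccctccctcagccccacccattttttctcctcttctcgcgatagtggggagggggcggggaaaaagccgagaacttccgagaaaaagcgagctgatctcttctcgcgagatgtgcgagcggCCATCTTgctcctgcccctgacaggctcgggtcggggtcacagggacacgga
Atp5g3: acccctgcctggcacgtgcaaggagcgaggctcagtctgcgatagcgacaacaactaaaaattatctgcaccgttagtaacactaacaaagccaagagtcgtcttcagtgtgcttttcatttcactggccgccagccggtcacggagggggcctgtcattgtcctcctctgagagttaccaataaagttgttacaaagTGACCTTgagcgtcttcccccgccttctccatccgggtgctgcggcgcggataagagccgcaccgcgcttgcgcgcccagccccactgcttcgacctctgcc
Ndufb4: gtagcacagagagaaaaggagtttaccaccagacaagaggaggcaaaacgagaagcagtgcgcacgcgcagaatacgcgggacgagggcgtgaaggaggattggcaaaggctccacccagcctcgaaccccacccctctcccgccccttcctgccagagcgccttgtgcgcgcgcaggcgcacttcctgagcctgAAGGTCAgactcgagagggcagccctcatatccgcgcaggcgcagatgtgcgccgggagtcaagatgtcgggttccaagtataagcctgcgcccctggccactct
Ndufs7: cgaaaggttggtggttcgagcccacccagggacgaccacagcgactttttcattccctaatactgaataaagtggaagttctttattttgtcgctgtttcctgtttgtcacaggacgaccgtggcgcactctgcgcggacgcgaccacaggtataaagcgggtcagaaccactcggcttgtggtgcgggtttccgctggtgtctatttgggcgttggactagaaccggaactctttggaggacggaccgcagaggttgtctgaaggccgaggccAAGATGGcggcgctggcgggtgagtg

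Both strands of the promoters were searched for the 4 motifs, and 69 members had a promoter in the RefSeq table. The NRF1 core lay in 10 of the 69 (14.5%), against 2.80% of all 27025 promoters and 5.19% of the 10563 promoters of genes tested here. For the ETS core the shares were 23.2% of members (16), 9.12% of all promoters and 17.8% of promoters of tested genes. YY1 cores were found in 14.5% of members (10), 6.48% of all and 7.17% of tested genes, and ERR cores in 11.6% of members (8), 4.66% of all and 3.44% of tested genes. A match of letters is a description of the window and not a binding site.

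Levels are given as normalised FPKM, the count divided by the deposited gene size and by library size after TMM scaling. That gene size can exceed the longest protein-coding transcript, as for Cox6c (3567 against 738 bases). Ranks, sums and shares between genes depend on it, whereas 1 gene can be compared between libraries. Library totals ran from 12770586 to 16536186 counts in IR-Ori, 12449529 to 16625908 in IR and 12755980 to 19798188 in sham livers. The share of counts on the 37 genes of the mitochondrial genome varied widely, at 29.4, 31.0, 29.1, 26.8, 14.1 and 32.03% in IR-Ori livers 1 to 6, at 42.9, 22.1, 19.5, 14.5, 9.65 and 6.52% in IR livers 1 to 6, and at 10.3, 42.8, 11.2, 12.4, 27.4 and 27.0% in sham livers 1 to 6. IR liver 1 and sham liver 2 stood above 40%, and 5 of 6 IR-Ori livers stood at 26.8% or more, so the share is distributed unevenly over the groups. Results that touch it are therefore given with and without it. Hepatocyte markers were abundant in every library: 11 of 12 were found under their symbol, all 11 passed the filter, and their summed level ran from 25808 to 44196 in IR-Ori, 25041 to 38383 in IR and 15390 to 50487 in sham livers.

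Most nuclear respiratory genes were well expressed in these livers. Averaged over all libraries, 76 of the 92 members reached 10 normalised FPKM and 20 reached 100. On this scale, which depends on the gene size used, the highest mean levels belonged to Cox6b1 (290), Cox4i1 (237), Cox7c (236), Uqcrb (194), Cox6a1 (170) and Uqcrq (161), all subunits of complexes IV and III. In the other complexes the highest were Ndufa8 (123) in complex I, Sdhd (69.5), a membrane anchor of complex II, and Atp5h (149), a stalk subunit of ATP synthase. Of the summed level of all members, complex I made up 32.1%, complex II 3.19%, complex III 17.5%, complex IV 27.8% and complex V 19.4%.

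Cox4i2, Cox6a2 and Cox8b, copies known from other tissues, were close to absent, and Cox7a1 was detected. The lung-type Cox4i2 took at most 0.230% of the summed Cox4i level in any library, with 26 counts in all 18, and the heart and muscle forms Cox6a2 and Cox8b at most 0.178% and 0.562% of their families, with 6 and 8 counts. Cox7a1, the muscle and heart form of Cox7a, made up 3.52 ± 2.70% of its family in IR-Ori, 2.88 ± 2.81% in IR and 3.27 ± 3.97% in sham livers (SD, n = 6 each), and at most 8.30% in an IR-Ori, 8.42% in an IR and 11.3% in a sham liver. Markers of striated muscle were near 0 in all libraries, with a summed level of 0.456 to 2.55 in IR-Ori, 0.525 to 2.06 in IR and 0.906 to 2.67 in sham livers and no count of Myh6. Ndufa4l2, a paralog of Ndufa4 that is known to be raised by hypoxia in other cells, had a low level in all groups. Its lowest, median and highest values were 0.65, 1.07 and 1.98 in IR-Ori, 0, 0.68 and 1.92 in IR, and 0.89, 1.69 and 2.47 in sham livers. Of the summed Ndufa4 and Ndufa4l2 level it made up 2.63 ± 1.94% in IR-Ori, 0.914 ± 0.979% in IR and 3.79 ± 5.97% in sham livers (SD), and at most 15.8%, in a sham liver. Cox7b2, Cox8c and a second row for Atp5o had no count among 275886889, which allows up to 0.0109 CPM (3 counts over all libraries, counting error only). Germ cell markers were likewise near 0, with Prm1, Prm2 and Tnp1 at 0 throughout.

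The c subunit of the ATP synthase ring is encoded by 3 genes that yield the same mature protein. Atp5g3 supplied 62.4 ± 8.29% of their summed level in IR-Ori, 73.7 ± 7.18% in IR and 66.9 ± 10.4% in sham livers. Atp5g2 supplied 22.1 ± 5.07% in IR-Ori, 15.5 ± 3.47% in IR and 19.1 ± 6.08% in sham livers, and Atp5g1 15.5 ± 3.40% in IR-Ori, 10.7 ± 3.98% in IR and 14.0 ± 4.55% in sham livers (SD, n = 6 each). In raw counts over all libraries Atp5g1 had 24251 and Atp5g2 11843, so the order of these 2 genes rests on the gene size used as divisor. No test was made of these shares, and their ranges overlap.

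Summed over all members, the level was 5236 ± 810 in IR-Ori, 5685 ± 670 in IR and 6242 ± 1606 in sham livers (SD, n = 6 each). By complex, complex I stood at 1740 ± 176 in IR-Ori, 1792 ± 239 in IR and 1982 ± 418 in sham livers, complex III at 915 ± 140 in IR-Ori, 981 ± 114 in IR and 1109 ± 260 in sham livers, and complex IV at 1494 ± 213 in IR-Ori, 1578 ± 145 in IR and 1697 ± 449 in sham livers. Complex II varied most, with a lowest, median and highest sum of 97.5, 120 and 283 in IR-Ori, 120, 174 and 274 in IR, and 78.5, 232 and 338 in sham livers. ATP synthase followed, with 752, 875 and 1419 in IR-Ori, 880, 1145 and 1438 in IR, and 522, 1236 and 1719 in sham livers. The groups overlap in all 5 sums, and sham liver 2 had the lowest sum of every complex among the 18 libraries. Between the lowest and highest library, complex I differed 1.98-fold, complex III 2.14-fold, complex IV 2.43-fold, complex V 3.29-fold and complex II 4.30-fold.

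**Figure D1:**
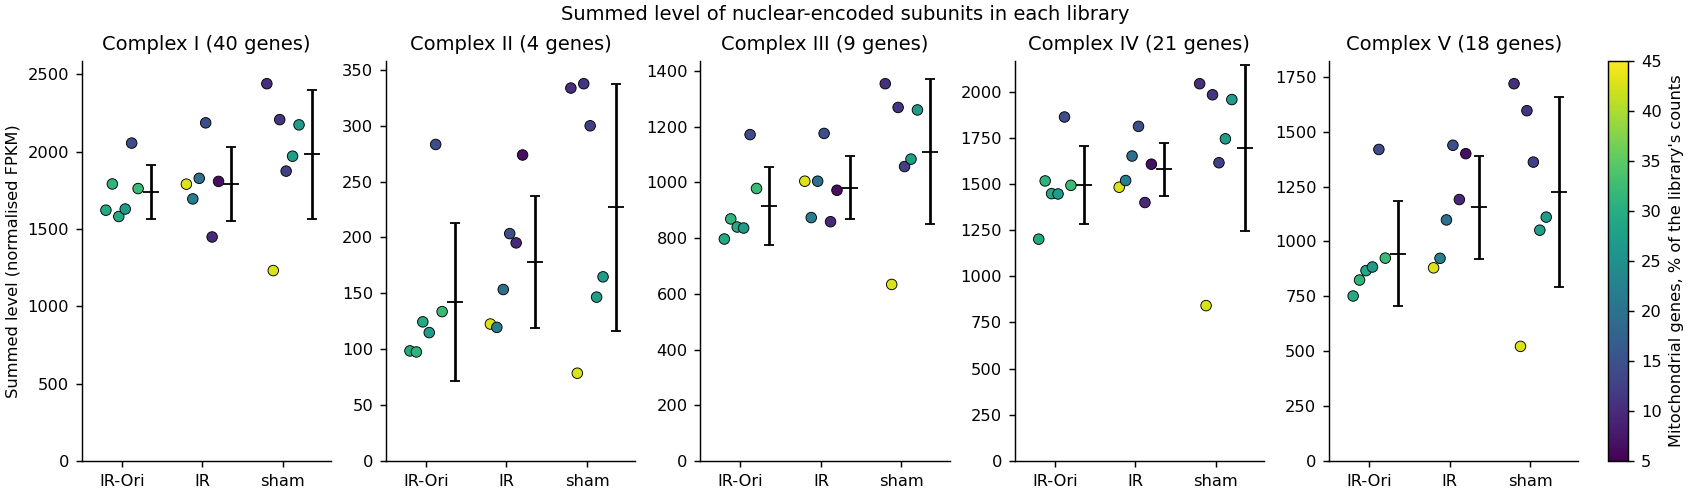
Summed level (normalised FPKM) of the members of each complex in every library, IR-Ori, IR and sham from left to right. Points are libraries coloured by the share of counts on mitochondrial genes, and bars are the mean with SD (n = 6). In each group the highest complex II sum, 283 in IR-Ori, 274 in IR and 338 in sham livers, belongs to a library with a share of at most 14.1%.

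For IR against sham, the comparison asks how these mRNAs differed after ischemia and reperfusion together, relative to sham surgery. None of the 84 members that passed the filter on low counts changed at an adjusted p under 0.05 (edgeR quasi-likelihood test, Benjamini-Hochberg over 14595 genes), while 7.89% of all genes tested passed, 5.52% higher and 2.36% lower. At an unadjusted p under 0.05, 6 members were lower (Ndufs7, Ndufb4, Ndufs3, Cox6b1, Ndufa10 and Ndufa8) and 0 higher, against 9.87% and 13.6% of all genes. DESeq2 called 3 lower (Ndufs3, Ndufs7 and Ndufa10) and 0 higher, against 4.83% and 7.63% of all genes, and limma on log2(FPKM + 1), which tested 83 members, called 0. Of the 84, 64 had a negative and 20 a positive log2 fold change, with a median of −0.15. Over all genes 7264 of 14595 were negative, with a median of 0.00. Members share the same libraries, so counts of signs here and below are descriptions. With 1 library left out the median of members ran from −0.32 (without sham liver 2, where complex II stood at −0.60 and complex V at −0.35) to −0.12. Their fold changes lay between −1.01 and 0.51, and 1 of 84 (1.19%) was beyond 1 on the log2 scale, against 11.6% of all genes. In no member did the 2 groups stand apart without overlap, against 2.52% of all genes higher and 1.37% lower.

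The smallest p belonged to Ndufs7, which encodes a core complex I subunit that carries the last iron-sulfur cluster before ubiquinone (ENSMUSG00000020153, GRCm39 chr10:80084955-80092628, plus strand). Its lowest, median and highest levels were 17.2, 21.4 and 26.6 in IR livers, against 23.2, 29.2 and 35.8 in sham livers. Only IR liver 1, at 26.6, reached into the sham range, and the other 5 IR livers lay below every sham liver. The log2 fold change was −0.49 ± 0.16 (SE), with an adjusted p of 0.0696 by edgeR. Ndufb4, an accessory subunit of the membrane arm (GRCm39 chr16:37467532-37474815, minus strand), had 15.1, 24.2 and 30.1 in IR livers and 26.6, 30.4 and 42.2 in sham livers, a log2 fold change of −0.48 ± 0.18 with an adjusted p of 0.116. Here 3 IR livers lay inside the sham range and 3 below it.

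Other core and accessory subunits of complex I had values of the same kind without passing. Ndufs3, a core subunit of the peripheral arm, had 33.6, 38.3 and 43.6 in IR livers and 39.1, 49.5 and 64.0 in sham livers (log2 fold change −0.38 ± 0.15, edgeR adjusted p = 0.130). The 7 core subunits encoded in the nucleus had a median of −0.32, and 5 of the 7 were negative. The 31 other tested members of complex I had a median of −0.16. In complex II all 4 subunits were negative, with a median of −0.37: the flavoprotein Sdha at −0.42 ± 0.51, the iron-sulfur subunit Sdhb at −0.45 ± 0.23, and the anchors Sdhc at −0.32 ± 0.30 and Sdhd at −0.27 ± 0.42. None of the 4 passed. The complex II median ran from −0.60 to −0.23 with 1 library left out, and was −0.11 with limma on log2(FPKM + 1). It was −0.61 among libraries with a mitochondrial share under 15% and 0.02 among those at 15% or more.

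Complexes III, IV and V had medians of −0.24, −0.06 and −0.12. In complex IV, Cox6b1, a subunit on the intermembrane side that links the monomers of the dimer, had 224, 252 and 267 in IR livers and 190, 344 and 377 in sham livers (log2 fold change −0.38 ± 0.17, edgeR adjusted p = 0.176). Sham liver 2, at 190, lies below every IR liver, and the other 5 sham livers, at 303 to 377, lie above every IR liver. The catalytic beta subunit of ATP synthase, Atp5b (GRCm39 chr10:127919142-127926260, plus strand), had 47.5, 111 and 193 in IR livers and 27.5, 98.9 and 172 in sham livers, a log2 fold change of 0.16 ± 0.49. Its groups cover nearly the same range.

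**Figure D2:**
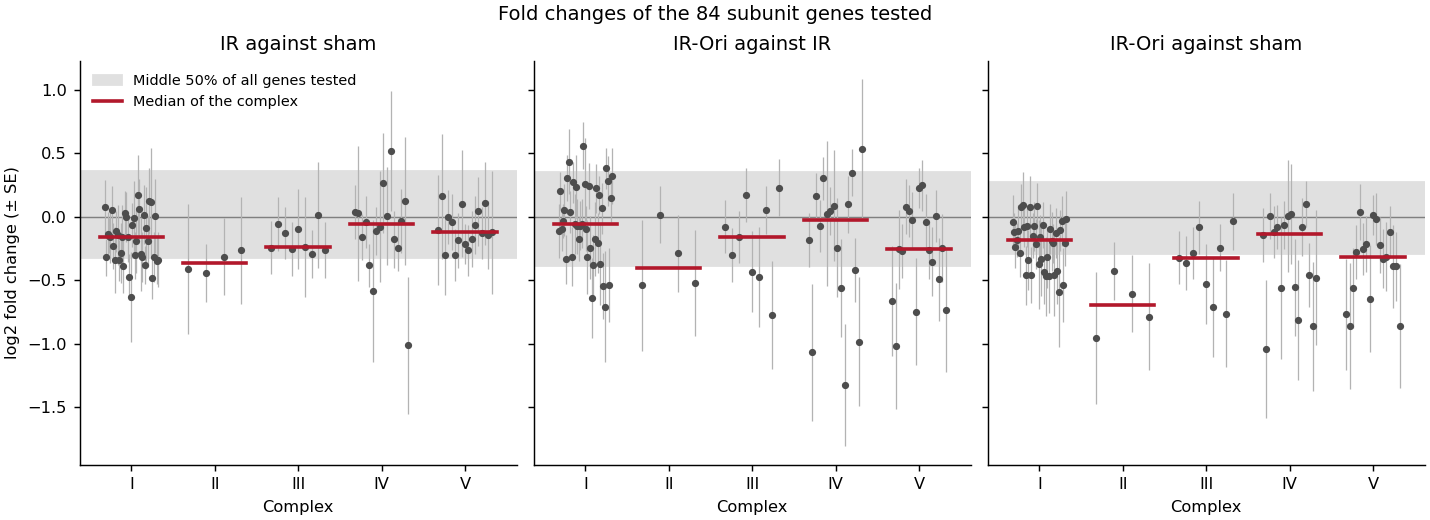
Log2 fold change of each tested member by complex, in 3 panels for IR against sham, IR-Ori against IR and IR-Ori against sham from left to right. Each point is a gene, the red line is the median of the complex, and the grey band holds the middle 50% of all genes tested. Most members lie within or near the grey band, and complex II lies lowest in IR-Ori against sham, with a median of −0.70.

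These calls depended on a few libraries and on the mitochondrial share. Without sham liver 2, edgeR called 3 members lower, Ndufs3 (−0.49, adjusted p = 0.0451), Ndufv2 (−0.53, 0.0404) and Cox6b1 (−0.54, 0.0282), where 2.67% of all genes were lower. Without IR liver 1 it called 2, Ndufs7 (−0.61, adjusted p = 0.0286) and Ndufb4 (−0.61, 0.0485), where 4.34% of all genes were lower. Without both it called 5, Ndufs7, Ndufv2, Ndufa10, Ndufa8 and Cox6b1, at −0.49 to −0.63, where 3.26% were, and the median of members was −0.34. With the mitochondrial share as a covariate, Ndufs3 (−0.39, adjusted p = 0.0435) and Ndufs7 (−0.47, 0.0316) passed, where 4.92% of all genes were lower, and the median of members was −0.16. Among libraries with a share under 15%, which are IR livers 4 to 6 and sham livers 1, 3 and 4, the median was −0.27 and Ndufb4 passed (−0.71, adjusted p = 0.0473), where 4.11% of all genes were lower. Among those at 15% or more the median was 0.03 and 0 members passed, where 0.0943% of all genes were higher and 0% lower. In each of these fits 0 members were called higher.

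For IR-Ori against IR, the comparison asks what oridonin changed in reperfused liver. Again 0 of 84 members passed with edgeR, while 3.6% of all genes did, 0.596% higher and 3.01% lower. At an unadjusted p under 0.05, 2 members were higher (Ndufb4 and Ndufs7) and 2 lower (Cox7a2l and Ndufs6), against 9.81% and 14.4% of all genes. DESeq2 called 1 higher and 0 lower, against 3.08% and 6.07% of all genes, and limma called 0. The median of members was −0.08 (all genes −0.00), with 34 positive and 50 negative, and it ran from −0.17 (without IR-Ori liver 5) to −0.02 (without IR liver 4) with 1 library left out. Complex I had a median of −0.06, complex II −0.41, complex III −0.16, complex IV −0.03 and complex V −0.26. Without IR-Ori liver 5, complex II stood at −0.75 and complex V at −0.35, without IR liver 6 complex II stood at −0.19, and without IR liver 4 complex V stood at −0.06.

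Ndufb4 had the smallest p. Its lowest, median and highest levels were 30.8, 33.4 and 41.5 in IR-Ori livers, against 15.1, 24.2 and 30.1 in IR livers, so every IR-Ori liver stood above every IR liver. The log2 fold change was 0.56 ± 0.18, with an edgeR adjusted p of 0.0862. Among members it was the single gene whose groups did not overlap, against 0.644% of all genes higher and 1.27% lower without overlap. DESeq2 put it at 0.57 with an adjusted p of 0.0341, and without IR liver 1 edgeR gave 0.67 with 0.0428, where 2.17% of all genes were called higher. It was not called with the mitochondrial share as a covariate, nor among libraries with a share of 15% or more. IR livers 4 to 6, all with a share under 15%, stood at 15.1 to 20.3, and IR livers 1 to 3 at 28.1 to 30.1. Within groups Ndufb4 rose by 0.16 ± 0.06 per 10 points of share, and the part of the share was not tested. Ndufs7 had 21.3, 28.1 and 33.6 in IR-Ori livers and 17.2, 21.4 and 26.6 in IR livers, which overlap, with a log2 fold change of 0.38 ± 0.16 and an edgeR adjusted p of 0.160. IR livers are shared by this comparison and IR against sham, so a low value in them enters both with opposite signs.

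Values on the lower side were led by Cox7a2l (GRCm39 chr17:83809347-83824759, minus strand), whose protein, also called SCAF1, has been studied as a link between complexes III and IV in supercomplexes. Whether it has that role in the mice used here was not tested. It had 11.8, 16.7 and 48.7 in IR-Ori livers and 24.2, 52.4 and 79.2 in IR livers, with a log2 fold change of −1.33 ± 0.48 and an edgeR adjusted p of 0.111. In 5 IR-Ori livers it was at 17.6 or less, below every IR liver, and IR-Ori liver 5 stood at 48.7, inside the IR range. Without that library the log2 fold change was −1.79 ± 0.47, with an adjusted p of 0.0366, where 4.4% of all genes were called lower. IR-Ori liver 5 is also the one with the lowest mitochondrial share of its group, 14.1%, so leaving it out widens the gap in share between the 2 groups. Within groups, Cox7a2l fell by 0.72 ± 0.09 on the log2 scale per 10 percentage points of share. With the share as a covariate 0 members were called, and the part of the share in the Cox7a2l values was not tested.

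A similar layout was seen in further members with wide spread. Cox5a (GRCm39 chr9:57428557-57439709, plus strand), a matrix-side subunit of complex IV, had 5.29, 12.7 and 46.2 in IR-Ori livers and 16.5, 35.0 and 58.7 in IR livers, a log2 fold change of −1.07 ± 0.54. Atp5b had 27.9, 47.1 and 134 in IR-Ori livers and 47.5, 111 and 193 in IR livers, at −1.02 ± 0.50 (edgeR adjusted p = 0.215). Both overlap between the groups, and in both the highest IR-Ori liver is liver 5. With the mitochondrial share as a covariate, the median of members was 0.01, that of complex II −0.07 and that of complex V −0.04, with 0 members called. Among libraries with a share of 15% or more the median was −0.13 and 0 were called, as were 0% of all genes higher and 0.101% lower. Under 15% there is 1 IR-Ori liver, and no value was computed there.

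**Figure D3:**
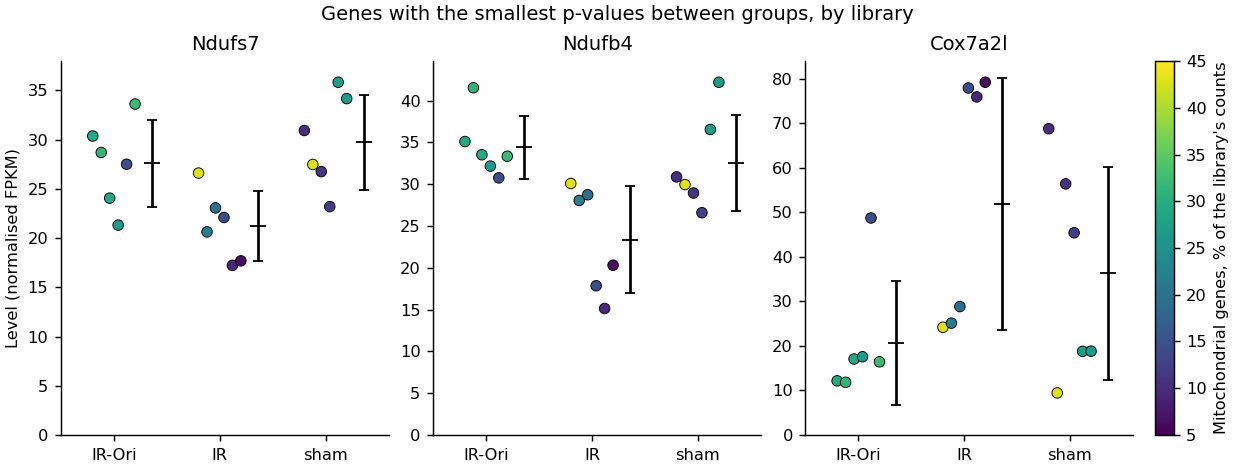
Level (normalised FPKM) of Ndufs7, Ndufb4 and Cox7a2l in each library, with IR-Ori, IR and sham from left to right. Points are libraries coloured by mitochondrial share and bars are the mean with SD (n = 6). Every IR-Ori liver lies above every IR liver for Ndufb4, and IR-Ori liver 5, at 48.7, stands apart for Cox7a2l.

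For IR-Ori against sham, 0 of 84 members passed with edgeR, as did 0 of all genes tested (0%). At an unadjusted p under 0.05, 1 member was lower and 0 higher, against 3.66% and 6.35% of all genes, and DESeq2 and limma called 0 members. No member had groups without overlap, against 0.178% of all genes higher and 0.0822% lower. Of the 84 log2 fold changes, 74 were negative and 10 positive, with a median of −0.25. Over all genes 7458 of 14595 were negative, with a median of −0.01. The members share the same libraries, so this count of signs is a description and no test. By complex the medians were −0.19 in I, −0.70 in II, −0.33 in III, −0.13 in IV and −0.31 in V, and all 7 core subunits of complex I were negative. Without sham liver 2 the median of members was −0.38, and without IR-Ori liver 5 it was −0.33, with complex II at −1.04. With the share as a covariate the median of members was −0.13, that of complex II −0.36 and that of complex V −0.13, and among libraries with 15% or more it was −0.09. The part of the mitochondrial share in these medians, and that of the IR-Ori against IR medians, was not tested beyond these values.

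That single member was Ndufb10, an accessory subunit of the membrane arm of complex I. Its lowest, median and highest levels were 60.2, 71.8 and 116 in IR-Ori livers and 51.3, 110 and 141 in sham livers (log2 fold change −0.46 ± 0.22, edgeR adjusted p = 0.498). The IR-Ori range lies inside the sham range, and the overlap comes from sham liver 2, at 51.3, and IR-Ori liver 5, at 116. The other IR-Ori livers, at 60.2 to 92.0, lie below the other sham livers, at 107 to 141. In complex II, Sdha (GRCm39 chr13:74470373-74498399, minus strand) had 10.6, 16.6 and 55.6 in IR-Ori livers, 15.7, 27.5 and 62.5 in IR livers and 8.22, 42.6 and 70.5 in sham livers, and its IR-Ori against sham value was −0.96 ± 0.52. Sdhd, Sdhc and Sdhb stood at −0.79 ± 0.42, −0.61 ± 0.30 and −0.43 ± 0.23 in that comparison. Sham livers split here, with livers 1, 3 and 4 at 65.3 to 70.5 for Sdha and livers 2, 5 and 6 at 8.22 to 19.9.

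Within groups, many members followed the mitochondrial share of the library. This was tested in 1 model with the 3 groups as a factor and the share as a slope, so that differences between groups play no part. Of the 84 members, 38 fell (45.2%) and 6 rose (7.14%) with the share at an edgeR adjusted p under 0.05, where 23% of all genes fell and 19.9% rose. Because 42.9% of all genes tested were called, a call on the share is common in these libraries. The median slope of the members was −0.14 on the log2 scale per 10 percentage points, against −0.01 for all genes, and it was −0.07 without sham liver 2 and −0.22 without IR liver 1. Slopes fitted per group had medians of −0.20 in IR-Ori, 0.00 in IR and −0.27 in sham livers (−0.09 in sham livers without both libraries over 40%). The IR-Ori slopes rest mostly on IR-Ori liver 5, whose share of 14.1% lies far below that of the rest of its group. In bulk tissue, fewer cells of a type and less RNA per cell cannot be told apart, and the share itself is not a measure of mitochondrial number.

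Within a complex the slopes differed in size, and in complexes I and III the members that passed also differed in sign. In complex V, 11 of 17 fell and 0 rose. Atp5b had the steepest slope there, −0.75 ± 0.09 per 10 points (edgeR adjusted p = 1.03e-05). In IR-Ori livers 1 to 6 Atp5b stood at 28.0, 27.9, 50.3, 52.3, 134 and 43.8, in IR livers 1 to 6 at 47.5, 53.6, 75.6, 147, 166 and 193, and in sham livers 1 to 6 at 172, 27.5, 168, 146, 45.6 and 51.4. The highest values are those of the libraries with the lowest shares in all 3 groups. The membrane stalk subunit Atp5pb (−0.71 ± 0.11), the alpha subunit Atp5a1 (−0.66 ± 0.08) and the c-ring gene Atp5g3 (−0.66 ± 0.09) followed it. By contrast Atp5e, the small epsilon subunit of the central stalk, had 0.17 ± 0.08 (adjusted p = 0.0842) and Atp5h −0.01 ± 0.06, neither of which passed.

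All 4 subunits of complex II fell, Sdha by 0.77 ± 0.10, Sdhd by 0.60 ± 0.09, Sdhc by 0.38 ± 0.08 and Sdhb by 0.25 ± 0.07 on the log2 scale per 10 points, and Sdhb did not pass without sham liver 2. Sdha lay at 55.6 in IR-Ori liver 5, which has the lowest share in its group, and at 10.6 to 17.97 in the other 5 IR-Ori livers. In complex III 4 of 9 fell, Uqcrh, the acidic hinge protein (−0.66 ± 0.08), the core proteins Uqcrc2 (−0.59 ± 0.08) and Uqcrc1 (−0.48 ± 0.06), and cytochrome c1, Cyc1 (−0.23 ± 0.06). Uqcrq, a small subunit of the same complex, rose by 0.21 ± 0.07 (edgeR adjusted p = 0.0244). The Rieske protein Uqcrfs1 had −0.11 ± 0.06 and Uqcrb 0.03 ± 0.08, and neither passed.

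Complex IV held the steepest slope of all members. Cox5a fell by 0.79 ± 0.12 per 10 points (edgeR adjusted p = 7.46e-05), followed by Ndufa4 (−0.76 ± 0.13), Cox7a2l (−0.72 ± 0.09), Cox7a2 (−0.58 ± 0.10) and Cox8a (−0.25 ± 0.08), which did not pass without sham liver 1, sham liver 2 or IR-Ori liver 5. The other 11 tested members did not pass, among them Cox4i1 (−0.15 ± 0.08), Cox6b1 (−0.06 ± 0.06) and Cox5b (0.08 ± 0.07). A test between the slopes of members was not made.

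In complex I, 14 of 38 fell and 5 rose. Among core subunits, Ndufv1, the flavoprotein that takes electrons from NADH (−0.40 ± 0.06), and Ndufs1 (−0.20 ± 0.06) fell, and Ndufv2, Ndufs3, Ndufs7 and Ndufs8 did not pass, with −0.11 ± 0.07, −0.10 ± 0.05, 0.11 ± 0.06 and 0.16 ± 0.06. The steepest accessory subunits were Ndufs4 (−0.47 ± 0.08), Ndufb9 (−0.43 ± 0.08) and Ndufb6 (−0.39 ± 0.08). Those that rose were Ndufa5 (0.33 ± 0.07, edgeR adjusted p = 0.0012), Ndufb1 (0.31 ± 0.07), Ndufv3 (0.19 ± 0.08), Ndufa3 (0.19 ± 0.06) and Ndufb4 (0.16 ± 0.06, adjusted p = 0.0473). Ndufa5 (GRCm39 chr6:24518665-24528012, minus strand), a subunit of the peripheral arm, had 122, 115, 89.8, 79.1, 64.8 and 94.2 in IR-Ori livers 1 to 6, 111, 74.0, 82.9, 67.8, 41.2 and 41.9 in IR livers 1 to 6, and 70.1, 95.0, 78.0, 51.7, 113 and 122 in sham livers 1 to 6. It is lowest in IR-Ori liver 5 and IR livers 5 and 6, which have the lowest shares of their groups.

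**Figure D4:**
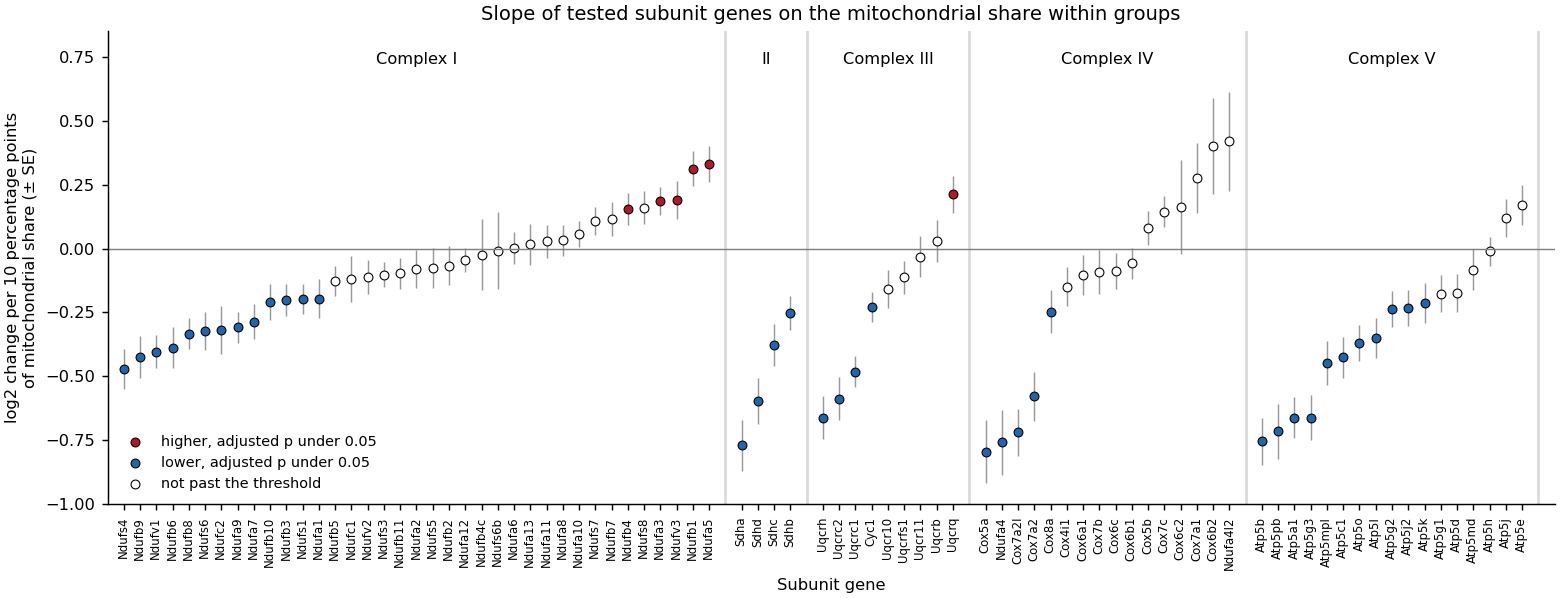
Change in level per 10 percentage points of mitochondrial share within groups (log2, with SE) for the tested members by complex, 1 of them left out. Blue marks members that fell and red those that rose at an adjusted p under 0.05, and white those that did not pass. All 4 members of complex II fell, and each larger complex spans from about 0 or above to −0.47 or below.

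**Figure D5:**
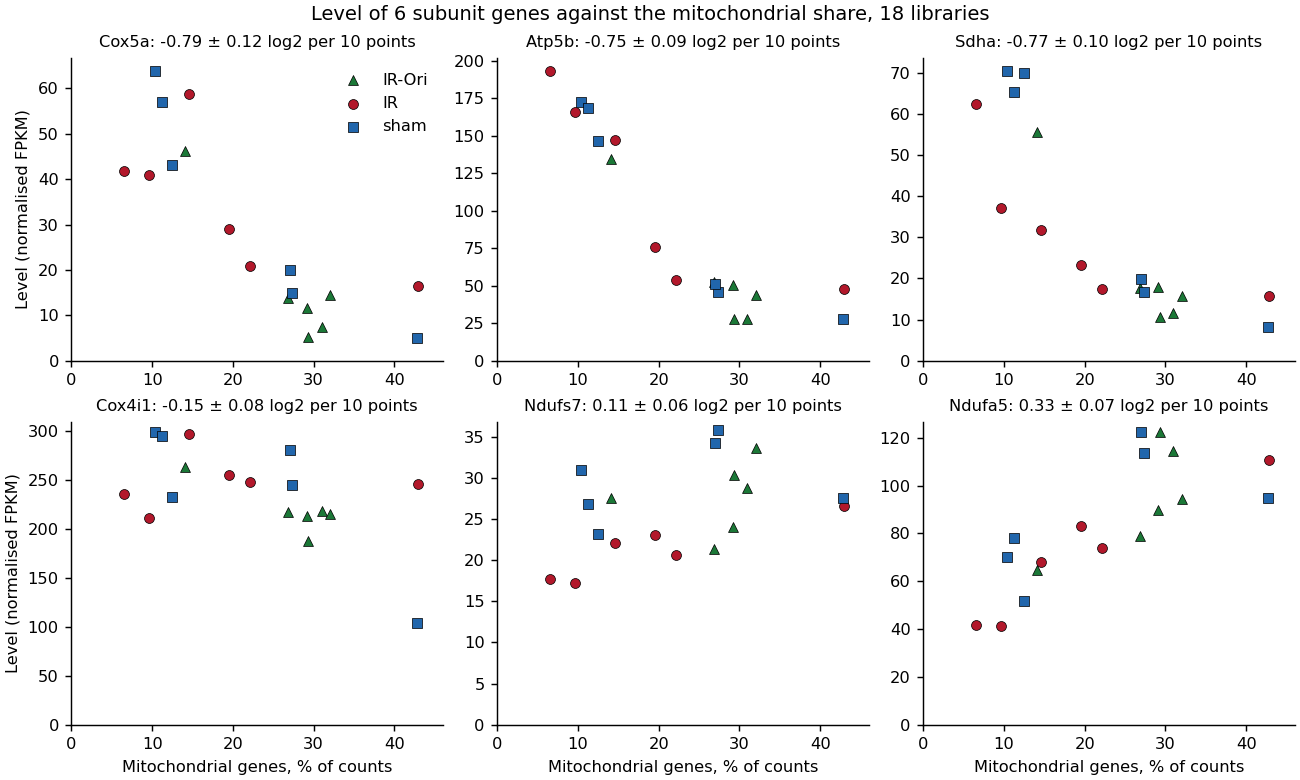
Level (normalised FPKM) of Cox5a, Atp5b, Sdha, Cox4i1, Ndufs7 and Ndufa5 against the share of counts on mitochondrial genes (%) in 18 libraries, coloured by group. With 1 slope for all groups, Cox5a, Atp5b and Sdha fell with the share, Ndufa5 rose, and Cox4i1 and Ndufs7 did not pass the test.

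When a slope was fitted per group, 16 members fell and 0 rose in IR-Ori livers (2.73% and 0.363% of all genes), 11 fell and 3 rose in IR livers (9.52% and 6.58%), and 42 fell and 0 rose in sham livers (14.6% and 11.7%) at an edgeR adjusted p under 0.05. IR-Ori liver 5 had a share of 14.1% and the other IR-Ori livers 26.8 to 32.03%, so the IR-Ori slopes rest mostly on that library. The IR-Ori minus IR differences below use these slopes. Without both libraries over 40%, 15 fell and 1 rose in sham livers, where 866 of 14714 genes were called in either direction. With all libraries 3848 of 14595 genes were called in sham livers, so calls became fewer over all genes too. The difference of slopes between IR and sham was positive for 82 of 84 members, with a median of 0.28 (all genes 0.00), and 0 members passed the test of that difference after adjustment, with 30 higher and 0 lower at an unadjusted p under 0.05, where 6.11% and 5.95% of all genes were. Without the 2 libraries above 40%, 72 of 84 were positive, the median was 0.18, and 1 higher and 2 lower were under 0.05. Over all genes 53.1% were positive there, with a median of 0.04, and their share under 0.05 is not given here. Only 3 of all genes (0.0206%) passed the test of the difference between IR and sham slopes with all libraries, and 23 without those 2. IR-Ori minus IR was negative for 76 of 84 (median −0.23), with 12 lower and 0 higher at an unadjusted p under 0.05, against 4.32% and 3.56% of all genes, and with 0 members and 0% of all genes called.

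The number of members that rose with the share was less steady than the number that fell. Without sham liver 2, 13 rose and 29 fell (15% and 18.6% of all genes), without IR liver 1, 3 rose and 44 fell (18.9% and 22% of all genes), and without both, 9 rose and 28 fell (13.4% and 17.4% of all genes). With library totals in place of TMM scaling, which moved the median slope of all genes to −0.07, 2 rose and 47 fell (12.6% and 28.3% of all genes). Ndufb4 lost its call on the share in 21 alternatives. Cox8a lost it in 7 and Atp5g2 and Ndufb10 in 6 each, and all of these last 3 did so without sham liver 2 and without both libraries over 40%. Among members, the slope had a Spearman rho of 0.23 with GC content (80 of 84 genes with a value), against 0.26 over 12491 nuclear genes, as a description across genes that share these libraries and are not independent replicates. With transcript length rho was −0.20 among members and 0.04 over all, and with mean level −0.00 and −0.21. The NRF1 core lay in 5 of 30 members with a promoter that fell with the share, 0 of 5 that rose and 5 of 32 that did not pass, the ETS core in 7, 0 and 9, the YY1 core in 6, 1 and 3, and the ERR core in 4, 1 and 3.

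Genes that serve the same complexes without being subunits gave a similar count. Of the tested assembly factors (16 for complex I, 14 for complexes II, III and V and 22 for complex IV) and the 11 genes for cytochrome c and carriers, 0 passed in any of the 3 group comparisons with edgeR. Of all genes, 7.89% passed in IR against sham, 3.6% in IR-Ori against IR and 0% in IR-Ori against sham. At an unadjusted p under 0.05, 4 complex I factors and 1 for complexes II, III and V were lower and 1 carrier gene higher in IR against sham, and 2 complex I factors were higher and 2 lower in IR-Ori against IR. At that level 9.87% of all genes were lower and 13.6% higher in IR against sham. In IR-Ori against IR 9.81% of all genes were higher and 14.4% lower. Ndufaf4, an assembly factor of complex I, averaged 20.4 ± 2.46 in IR-Ori, 14.7 ± 1.899 in IR and 19.97 ± 2.63 in sham livers, with 0.47 ± 0.15 in IR-Ori against IR (edgeR adjusted p = 0.0723) and −0.44 ± 0.15 in IR against sham (0.0696). The 13 mitochondrial-encoded subunits also gave 0 calls, and all 13 rose with the share they make up. With the share, 7 of 16 complex I factors, 5 of 14 for complexes II, III and V, 10 of 22 for complex IV and 7 of 11 carriers fell, and 1 of each list rose. Of all genes, 23% fell and 19.9% rose with it.

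Among the 17 enzymes of the tricarboxylic acid cycle, Idh3g, a regulatory subunit of NAD-dependent isocitrate dehydrogenase, was the 1 that fell in IR against sham, at the edge of the threshold (−0.42 ± 0.13, edgeR adjusted p = 0.0499), where 2.36% of all genes were lower. It averaged 20.2 ± 1.64 in IR-Ori, 15.7 ± 1.77 in IR and 20.9 ± 1.56 in sham livers. With the share, 12 of the 17 fell and 0 rose, against 23% and 19.9% of all genes. Of 19 regulators of mitochondrial biogenesis, 0 passed in a group comparison (1 higher and 3 lower at an unadjusted p under 0.05 in IR against sham, 2 and 1 in IR-Ori against IR), and 4 rose and 5 fell with the share. Of 24 import genes 0 passed likewise (0 and 2 in IR against sham, 2 and 3 in IR-Ori against IR), and 4 rose and 12 fell with the share. Both lists stand beside 19.9% of all genes that rose and 23% that fell with the share. At an unadjusted p under 0.05, 13.6% of all genes were higher and 9.87% lower in IR against sham. In IR-Ori against IR these shares were 9.81% and 14.4%. Sirt3, a mitochondrial deacetylase listed among the regulators, came closest in IR against sham (−0.62 ± 0.20, adjusted p = 0.0597), and Timm9, an import chaperone, in IR-Ori against IR (0.71 ± 0.21, adjusted p = 0.0594).

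In 3 further lists a few genes passed, and the counts stand beside 7.89% of all genes in IR against sham and 3.6% in IR-Ori against IR. Of 11 genes of the mitochondrial unfolded protein response, 1 rose in IR against sham, and 2 fell in IR-Ori against IR. Hspe1, the co-chaperonin of the matrix, averaged 62.6 ± 21.6 in IR-Ori, 226 ± 137 in IR and 84.4 ± 22.5 in sham livers, with 1.42 ± 0.36 in IR against sham (edgeR adjusted p = 0.02) and −1.85 ± 0.36 in IR-Ori against IR (adjusted p = 0.0109). Its partner Hspd1 averaged 76.6 ± 37.4 in IR-Ori, 370 ± 354 in IR and 119 ± 50.4 in sham livers, with −2.27 ± 0.52 in IR-Ori against IR (adjusted p = 0.0224). Of 13 targets of hypoxia-inducible factor 2 rose and 1 fell in IR against sham and 1 fell in IR-Ori against IR. The glucose transporter Slc2a1 averaged 3.40 ± 0.68 in IR-Ori, 9.63 ± 4.66 in IR and 3.86 ± 0.84 in sham livers, with 1.32 ± 0.27 in IR against sham (edgeR adjusted p = 0.00672) and −1.50 ± 0.27 in IR-Ori against IR (adjusted p = 0.00694), and Pdk1, a kinase that holds back pyruvate dehydrogenase, fell by 1.18 ± 0.33 in IR against sham (adjusted p = 0.0318). Of 9 mitophagy genes 1 rose and 1 fell in IR against sham, and 1 fell in IR-Ori against IR. The autophagy receptor Sqstm1 had 1.896 ± 0.43 in IR against sham (adjusted p = 0.0118) and −1.95 ± 0.43 in IR-Ori against IR (adjusted p = 0.0184). None of these lists held a gene that passed in IR-Ori against sham, where 0 of the 14595 genes tested passed, so this holds for any list.

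Neutrophil and monocyte markers moved with the groups, as did a few markers of other cells. Of all genes, 5.52% were higher and 2.36% lower in IR against sham. In IR-Ori against IR the shares were 0.596% and 3.01%, and in IR-Ori against sham 0% each way. All 7 tested neutrophil markers (of 10) rose in IR against sham and 1 of 7 fell in IR-Ori against IR, and their summed level ran from 7.59 to 66.7 in IR-Ori, 71.7 to 281 in IR and 3.72 to 28.9 in sham livers. Of 7 tested monocyte markers (of 8), 6 rose in IR against sham and 6 fell in IR-Ori against IR, with sums of 11.02 to 25.5 in IR-Ori, 23.8 to 84.7 in IR and 7.12 to 28.0 in sham livers. In IR against sham 3 of 9 endothelial, 1 of 9 stellate, 1 of 7 pericyte and smooth muscle, 1 of 6 cholangiocyte and 1 of 2 brown fat markers also rose and 0 fell. In IR-Ori against IR 1 of those pericyte and 1 of those cholangiocyte markers fell. Endothelial sums ran from 23.0 to 38.01 in IR-Ori, 33.2 to 54.3 in IR and 15.1 to 44.8 in sham livers, and cholangiocyte sums from 12.4 to 37.7 in IR-Ori, 39.4 to 90.6 in IR and 18.8 to 63.1 in sham livers. Of B cell (5 tested) and T and NK cell (2 tested) markers 0 were called between groups. Hepatocyte markers had 0 of 11 called in the group comparisons, and with the mitochondrial share 5 of 11 fell and 0 rose. Of all genes, 23% fell and 19.9% rose with the share. Kupffer cell markers had 0 of 10 called between groups and erythroid markers 0 of 5. With the share, 3 of 10 Kupffer and 3 of 5 erythroid markers fell, and 1 of each list rose. Of the other lists, 3 of 9 stellate, 2 of 5 B cell, 1 of 9 endothelial and 1 of 7 neutrophil markers rose with the share, and 3 of 9 stellate, 2 of 9 endothelial and 1 each of the monocyte, pericyte and cholangiocyte markers fell. Their part in the values of the respiratory genes was not tested.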

How the data were processed

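RNA-seq was run on 18 libraries from mouse liver, 6 per group, taken from the labels' treatment field. The submitters' processing notes name cutadapt 1.9.1, HISAT2 2.2.1, DESeq2 and the build GRCm39. How reads were assigned to genes, whether by strand and with which annotation, is not given in the sources used here, so genes that overlap or have near copies are uncertain, among them Ndufb4c, Ndufs6b, Cox6c2 and Ndufa11b. The authors deposited 1 table with a raw count and an FPKM per gene and library. FPKM values recomputed from the deposited counts, gene sizes and library totals matched the deposited FPKM within 0.0051 in 100% of cases. No pair of libraries had identical counts.

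From the counts, edgeR 4.0.16 in R 4.3.3 gave the group comparisons: filterByExpr (minimum count 10, minimum total 15), TMM scaling, the quasi-likelihood F test over all 18 libraries (15 residual degrees of freedom) and Benjamini-Hochberg adjustment over 14595 genes, with a threshold of 0.05. A second model added the mitochondrial share. SE is the absolute log2 fold change over the square root of F. Of the 92 members, 84 passed the filter. Cox4i2, Cox6a2, Cox7b2, Cox8b, Cox8c, Ndufa11b, Ndufb11b and a second Atp5o row did not. Alternatives were DESeq2 1.42.0, limma 3.58.1 on log2(FPKM + 1) or with 0.1 in place of 1, other scaling, no filter, each library left out, a replicate block, and the mitochondrial share as covariate or as strata cut at 15%. Leaving out both libraries over 40%, and slopes per group, were chosen after seeing the data.

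Replicate numbers are shared across groups in the labels. Members and lists were chosen with earlier results of these data known. Members named in the text are, per complex and comparison, the 2 with the smallest p, the highest-expressed of each complex, named isoform families, and the 2 most significant each way on the mitochondrial share. Others named beside these were chosen after their values were seen. Promoters were matched by symbol to RefSeq, GRCm38.p6, and GC content and transcript length came from GENCODE transcripts of that older build, joined by gene identifier. The values of 1 member are not reported here. The scripts were tested on simulated counts.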

Additional observations from a re-analysis of the deposited data

Results flagged for a closer look

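Levels of the named members and of the summed complexes were screened within each group of 6 for a library that stands apart (Dixon's test). Of 120 tests 23 passed, where chance gives about 1 in 20 for genes not picked from the data, and the tests share libraries and are not independent. Many of the named members were picked by a small p between groups or on the mitochondrial share. The count therefore cannot be set against that chance rate. IR-Ori liver 5 was the highest of its group in 18 of them. In ATP synthase it had 192.0 normalised FPKM for Atp5a1, 134.5 for Atp5b, 146.7 for Atp5c1, 21.88 for Atp5g1 and 150.8 for Atp5g3. In complex IV the values were 46.22 for Cox5a, 161.0 for Cox7a2, 48.73 for Cox7a2l and 156.3 for Ndufa4. In complex II they were 55.62 for Sdha, 74.2 for Sdhb, 38.78 for Sdhc and 114.6 for Sdhd, and in complex III 58.07 for Uqcrc2 and 163.9 for Uqcrh. Its sums were 283.2 for complex II, 1419.0 for complex V and 6791.0 for all members. IR-Ori liver 5 has a mitochondrial share of 14.1%, and the other 5 have 26.8 to 32.03%.

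Sham liver 2 was the lowest of its group in 4 tests, with 9.143 for Atp5g1, 10.83 for Atp5g2, 104.1 for Cox4i1 and 841.0 for the sum of complex IV. Its mitochondrial share is 42.8%. The last was Cox6b2, the testis form of Cox6b, at 1.601 in IR-Ori liver 6, the highest of its group.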

How the results depend on the processing

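In IR against sham the number of members called lower (0 as reported) was 2 with the mitochondrial share as a covariate, 1 among libraries under 15%, 5 without both libraries over 40%, 3 with DESeq2, and 0 to 3 with 1 library left out, while 4.92%, 4.11%, 3.26% and 4.83% of all genes were lower in the first 4 of these. In IR-Ori against IR, 1 was called higher and 1 lower without both libraries over 40% (4.25% and 7.38% of all genes), and 1 higher with DESeq2 (3.08%), and leaving out 1 library gave 0 to 1 each way. IR-Ori against sham gave 0 under every alternative run. Members that rose with the share (6 as reported) numbered 2 with library totals, 2 with no filter (8.41% of all genes), 10 with DESeq2 (22.5%), and 3 to 13 with 1 library left out, and those that fell (38) 29 to 44 with 1 library left out. Fitted within 1 group of 6 libraries alone, 0 rose in each of the IR-Ori, IR and sham groups, and 0 fell in the IR-Ori, 0 in the IR and 39 in the sham group, where 0% of all genes rose and 0% fell in IR-Ori, 0.125% and 0% in IR, and 18.8% and 20.5% in sham. Same-numbered libraries had correlations of −0.44 to 0.42 in their deviations from group means, and in 9 of 36 searches the best match in another group had the same number, so the numbers are not taken to pair libraries. With the replicate block 0 members were called in the group comparisons, and 3 rose and 29 fell with the share (12.1% and 15.1% of all genes).

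Of the single-gene values, 4033 stayed on the same side of the threshold, 78 were weaker and 33 stronger under an alternative, and no called value changed direction. IR-Ori against IR and IR-Ori against sham were not run under 15%, where there is 1 IR-Ori library. The median SE of members in the group comparisons was 0.22 on the log2 scale. The floor given for members at 0 counts covers counting error only.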
